A study of Danio rerio with 20 samples.

Results

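The transcripts described here are those of 59 array probes that gave a higher signal in zebrafish embryos exposed to dimethyl sulfoxide (DMSO) at 0.1 ml/L than in the embryos they were hybridised against, in each of 3 pairs of RNA pools. The members were chosen by the measured ratios of these pairs. A probe was a member if its log2 ratio of DMSO 0.1 ml/L over the partner was 0.5 or more in all 3 pairs, each ratio being the mean of 2 arrays with the dyes exchanged. Of 16578 probe spots on the array, 3619 carried a usable confidence grade on all 6 of these arrays and could have met the rule, and 59 of them did (1.63%). The spots of 2 records, AF025305 (repeated 172 times on the array) and NC_002333, were left out by the rule. Another 26 probes (0.718%) had ratios of -0.5 or less in all 3 pairs.

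DMSO and dimethylformamide (DMF) are small polar solvents that mix with water and are used to carry poorly soluble chemicals into the medium of fish embryo tests. Such tests include a group that receives the solvent alone, because the carrier may act on the embryo itself. A 2-colour array measures RNA of both pools of a pair on the same spot, so its ratio says which pool held more of a transcript, and exchanging the dyes cancels a bias that a probe has for one dye.

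Whole zebrafish embryos at 48 hpf (hours post fertilisation) had been kept in DMSO at 0.025 or 0.1 ml/L, in DMF at 0.025 or 0.1 ml/L, or in neither solvent (control). Each condition had 4 RNA pools, numbered as the labels number its replicates (DMF 0.1 pool 1 is replicate 1 of DMF at 0.1 ml/L). Each held the surviving embryos of 1 plate that started with 20 exposed embryos, so it is an average over embryos and cell types. The strain was not given in the labels used here. The 20 pools formed 10 pairs on 20 arrays, and no pool occurred in more than 1 pair. In bulk RNA of whole embryos, fewer cells of a type and less RNA per cell cannot be told apart. The pairs that chose the members were DMSO 0.1 pool 2 with DMSO 0.025 pool 2, DMSO 0.1 pool 3 with control pool 4, and DMSO 0.1 pool 4 with DMF 0.1 pool 3. DMSO 0.1 pool 1 was on arrays 1 and 2. The file of array 1 named the same scan image as that of array 17, and the raw log2 ratios of these arrays correlated at 0.949 over 10310 spots. Array 1 was left out for this reason, and array 2 is described separately below as a pool that the rule did not use.

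Each of the 59 members was a different GenBank record, and none of these records occurred at a second spot. None of the 59 matched a gene symbol in the reference tables used here, which named 48 probe spots on the whole array, 16 of them among the 3619 eligible probes. The members are therefore described by their values, and no function is given to any of them. Of 43 marker genes listed for embryonic tissues, body segments and stress responses, 7 were on the array under a symbol (dlx1a, dlx2a, dlx5a, egr1, hoxa13b, hoxb1b and hoxb5a). All 7 were eligible and 0 were members. As 1.63% of all eligible probes were members, 0 of 7 says little. The other markers had no probe under a symbol, so whether they are among the members is not known. The members came from 30 of 44 source plates and 26 of 48 print blocks. Source plates 02 and 27 held 6 members each (10.2% of the members against 2.43% and 2.21% of the eligible probes), as did print block 13 (10.2% against 3.12%).

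In the 3 pairs that chose them, the members ranged from just over the threshold to more than 5 on the log2 scale. The values in this paragraph describe the choice and were not tested. For DMSO 0.1 pool 2 over DMSO 0.025 pool 2, the log2 ratios of the members lay between 0.58 and 5.50 with a median of 1.41, and the median of the eligible probes was 0.14. Pool 3 over control pool 4 gave 0.51 to 3.20 with a median of 0.80, and the eligible median was -0.18. Pool 4 over DMF 0.1 pool 3 gave 0.53 to 3.94 with a median of 1.13, and the eligible median was -0.09. The pair with control was the narrowest gate: 48 of the 59 members had their lowest value there. The sizes are relative to the centre of each array. With loess, print-tip loess, background from empty spots or the authors' value table, all 59 were above 0 in all 3 pairs. With spots of the lowest grade kept, the centre moved so that the eligible medians became 0.86, -0.94 and -0.11 in the order above, and 32 of the 59 were above 0 in all 3. Of the members, 51 were above 0 on each of the 6 single arrays and 18 were at or above 0.5 on each. A group of 15 members had a log2 ratio of 1 or more in all 3 pairs, and 2 members had 2 or more. Nearest to the threshold, the lowest-pair values of 10 members lay between 0.51 and 0.57, and those of the next 10 probes outside lay between 0.45 and 0.49.

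**Figure D1:**
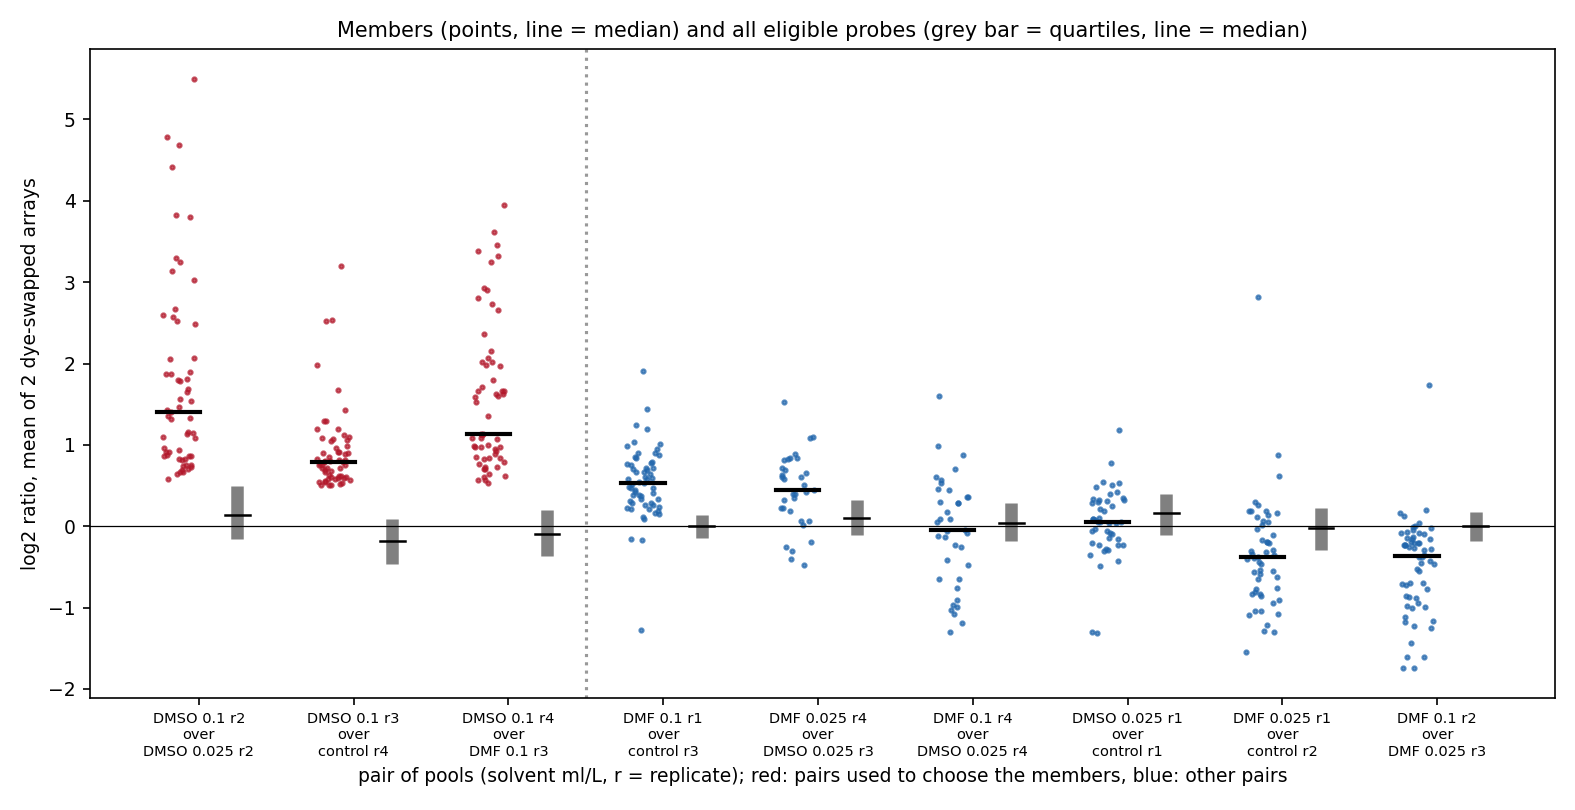
Log2 ratio of each member (points) in 9 pairs of pools, with the median as a black line, beside the quartiles (grey bar) and median of all eligible probes. Red points are the pairs that chose the members; among the other pairs (blue), the members lie highest with DMF 0.1 pool 1 over control pool 3 and lowest in the 2 pairs at the right.

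The brightness of the spots set how firmly these sizes can be read. On the array with DMSO 0.025 pool 2 in Cy5, the median amplitude of the members in that pool was 0.932 times the median of the 366 empty spots, and 54 of the 59 members were under 2 times the empty spots. With the dyes exchanged it was 4.01 times, and 20 were under 2 times. The eligible probes gave 1.45 and 4.91 times in this pool. Over all probes, the median was 2.98 to 4.28 times the empty spots in Cy3 on arrays 3 to 8 and 1.19 to 2.80 times in Cy5 on arrays 9 to 14. In each pair on these arrays the same pool was in that channel on both arrays, so dye, array and pool cannot be told apart there. DMSO 0.1 pool 3 was in that channel too, at 2.86 times the empty spots in Cy5 and 5.23 times in Cy3 for the members. There 21 of the 59 members in Cy5 and 2 in Cy3 were under 2 times the empty spots. The eligible probes gave 1.86 and 4.14 times in this pool. In the third pair the members' medians in both pools were well above the empty spots (6.35 to 26.2 times). The part of brightness in the ratios was not tested. On the 6 choosing arrays, where every eligible probe had a usable grade, 29.4% of the members' spots had the best grade against 28.4% of all eligible spots. The lowest usable grade held 28.8% against 25.3%. Beyond these arrays the members were graded less often. On all 18 arrays of the 9 pairs, 24 of 59 members and 2674 of 3619 eligible probes had a usable grade.

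The record AF180890 had the highest lowest-pair value. With DMSO 0.1 pool 2 over DMSO 0.025 pool 2 its log2 ratio was 3.79 on one array and 5.59, at the lowest usable grade, on the other. Pool 3 over control pool 4 gave 2.08 and 2.98, and pool 4 over DMF 0.1 pool 3 gave 4.01 and 3.22. All 6 arrays were thus far above 0. Outside these pairs, DMF 0.1 pool 1 over control pool 3 gave 2.04 and 1.77, and DMF 0.1 pool 2 over DMF 0.025 pool 3 gave -1.27 and -1.96. Both arrays agreed in sign in each of these pairs. In the pairs DMF 0.1 pool 4 over DMSO 0.025 pool 4, DMSO 0.025 pool 1 over control pool 1 and DMF 0.025 pool 1 over control pool 2, its values were between -0.60 and 0.48 and changed sign with the dyes.

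BM185985, second by the same measure, had log2 ratios of 6.32 and 4.68 with DMSO 0.1 pool 2 over its partner. Its spots had the lowest usable grade on both arrays, and the partner's amplitudes were 185 and 962. With DMSO 0.1 pools 3 and 4 over their partners, BM185985 had 2.72 and 2.32, and 3.10 and 2.71. Outside these pairs it had 0.90 and 0.86 with DMF 0.1 pool 1 over control pool 3, and -1.38 and -1.83 with DMF 0.1 pool 2 over DMF 0.025 pool 3, the same signs as AF180890. DMF 0.025 pool 1 over control pool 2 gave -0.75 and -0.80. With DMF 0.025 pool 4 over DMSO 0.025 pool 3 the orientations disagreed, at 1.24 and -0.22. BM185985 had no ratio with DMSO 0.025 pool 1 or with DMF 0.1 pool 4, whose spots had the lowest grade. In the pairs with DMF 0.1 pools 1 and 2, both records thus had ratios away from 0 in both orientations, between pools that had received no DMSO at 0.1 ml/L.

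**Figure D2:**
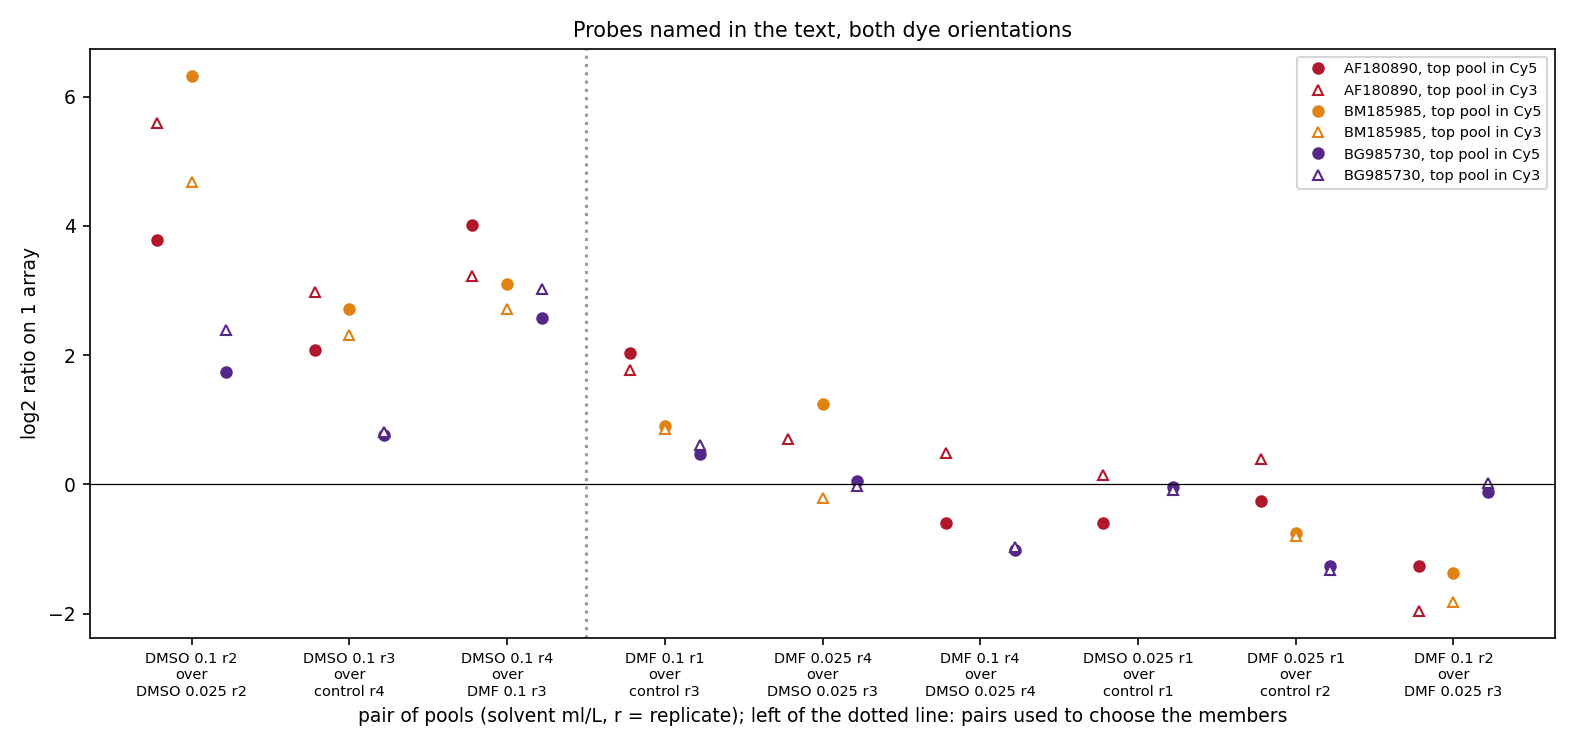
Log2 ratio on each single array for AF180890, BM185985 and BG985730 in 9 pairs, with the top pool of the ratio in Cy5 (filled circles) or Cy3 (open triangles). The 2 dye orientations lie on the same side of 0 for all 3 records in the 3 pairs left of the dotted line and with DMF 0.1 pool 1 over control pool 3.

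The members also leaned one way in pairs of pools that the rule had not used. The counts below stand beside the share of eligible probes, the members included, that met the same criterion. With DMF 0.1 pool 1 over control pool 3, 56 of 59 members were above 0, against 49.6% of the eligible probes, and 31 of 59 were at or above 0.5, against 2.58%. The median log2 ratio was 0.54 for the members and -0.00 for the eligible probes. Both orientations gave this direction, with 54 members above 0 on one array (60.7% of the eligible probes) and 53 on the other (36.9%). With loess, print-tip loess, low-grade spots kept, background from empty spots and the authors' table, 56 of 59 were again above 0. In both pools of this pair every member was more than 2 times as bright as the empty spots.

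The direction was opposite with DMF 0.1 pool 2 over DMF 0.025 pool 3. There 52 of 58 members were below 0, against 49.6% of the eligible probes, and 24 were at or below -0.5, against 4.61%. The members' median was -0.36 and the eligible median 0.00, so most members were higher in the DMF 0.025 ml/L pool. Single arrays had 48 of 58 and 45 of 59 members below 0, against 46.7% and 53.7% of the eligible probes. Under the same 5 alternatives, 52 to 54 members were below 0. By the names of the scan images, both pairs were in the last of 3 scan batches, as was 1 of the choosing pairs. The part of the batch was not tested. In both pairs together, 51 of 58 members were above 0 in the first and below 0 in the second, a pattern found in 29.4% of the eligible probes. Of those with both ratios, 18 members (31.0%) and 48 eligible probes (1.34%, these members among them) had both changes at 0.5 or more.

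**Figure D3:**
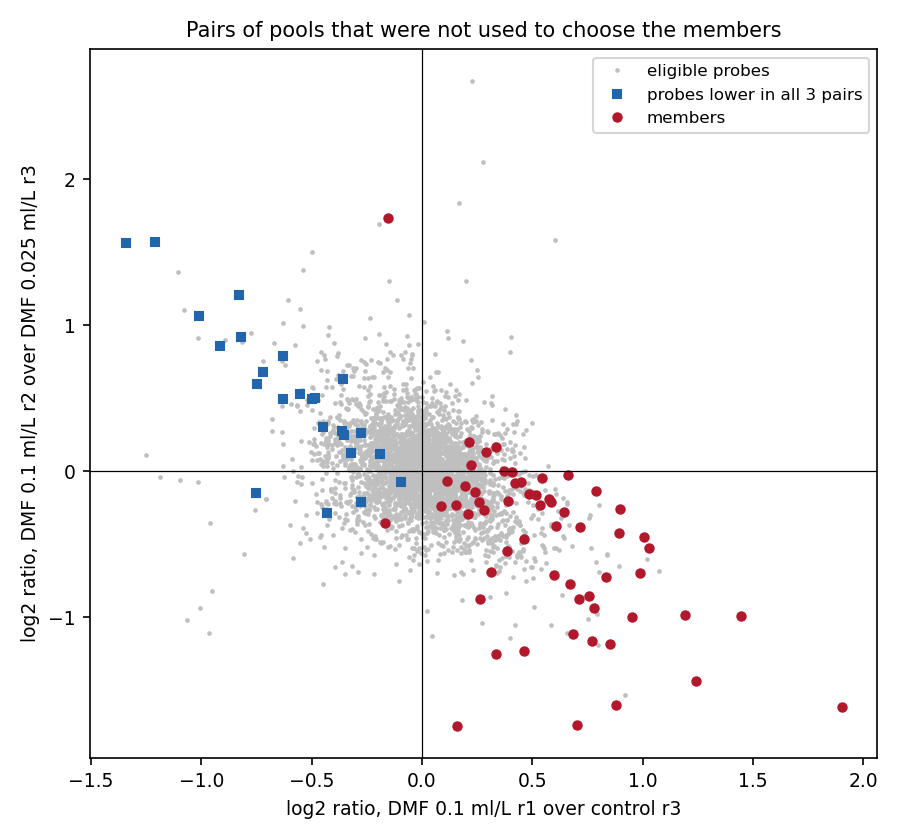
Log2 ratio of DMF 0.1 pool 1 over control pool 3 (horizontal) against that of DMF 0.1 pool 2 over DMF 0.025 pool 3 (vertical) for members (red circles), the 26 probes lower in all 3 choosing pairs (blue squares) and all eligible probes (grey). Of 58 members with both ratios, 51 lie at the lower right, and the blue squares lie mostly in the upper left.

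The 26 probes that were lower in the choosing pairs took the opposite side in these 2 pairs. All 26 were below 0 with DMF 0.1 pool 1 over control pool 3 (median -0.59), and 20 of 24 were above 0 with DMF 0.1 pool 2 over DMF 0.025 pool 3 (median 0.50). None of the 24 with both ratios shared the members' pattern. On the array of DMSO 0.1 pool 1, described below, 12 of the 26 had a value. With each probe's dye effect subtracted, 6 of the 12 were above 0 (46.4% of the eligible probes). Without that correction it was 1 of the 12 (47.4%).

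The size of a member's ratios in the choosing pairs went with its ratio in some of the other pairs and not in others. These values use the ratios that chose the members and are a description. Among the 15 members at 1 or more in all 3 pairs, the median was 0.84 with DMF 0.1 pool 1 over control pool 3 (14 of 15 above 0). The other 44 members had a median of 0.46, with 42 above 0. With DMF 0.1 pool 2 over DMF 0.025 pool 3 the medians were -0.996 (14 of 14 below 0) and -0.24 (38 of 44 below 0). Across members, the mean of the 3 choosing pairs had a Pearson correlation of 0.43 with the first of these pairs (59 members), -0.67 with the second (58 members) and 0.47 with DMF 0.025 pool 4 over DMSO 0.025 pool 3 (33 members). It was -0.10 with DMF 0.1 pool 4 over DMSO 0.025 pool 4 (37 members), -0.02 with DMSO 0.025 pool 1 over control pool 1 (46 members) and 0.20 with DMF 0.025 pool 1 over control pool 2 (52 members), where all eligible probes gave -0.28. Across all eligible probes the first 2 correlations were 0.65 (3607 probes) and -0.47 (3581 probes). With DMF 0.025 pool 4 over DMSO 0.025 pool 3 it was 0.27 (2934 probes). Probes are not independent replicates, and the pairs compared share no pool but share the array design, the amplification and the dyes.

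The remaining pairs outside the rule, all scanned in the second of 3 batches, kept fewer members because more spots had the lowest grade. DMF 0.025 pool 4 over DMSO 0.025 pool 3 had a ratio for 33 members. Of these, 28 were above 0 (62.4% of the eligible probes) and 16 were at or above 0.5 (13.7%), with medians of 0.45 and 0.10. By the authors' deposited values, 27 were above 0 and 6 at or above 0.5, which 3.44% of the eligible probes reached. On single arrays 28 of 35 members (56.7% of the eligible probes) and 29 of 50 (52.3%) were above 0, and the second count was near the share of all probes. All 7 measured members of the group of 15 were above 0 there, between 0.39 and 1.53. Of the 33, 25 were higher here, higher in DMF 0.1 pool 1 over control pool 3 and lower in DMF 0.1 pool 2 over DMF 0.025 pool 3, as were 22% of the eligible probes with all 3 ratios.

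With DMF 0.025 pool 1 over control pool 2, 38 of 52 members were below 0 (52.9% of the eligible probes) and 22 were at or below -0.5 (12.3%), so more members were higher in this control pool than in the exposed one. Single arrays had 40 of 56 and 33 of 52 members below 0, against 58.8% and 45.8% of the eligible probes. In the last 2 pairs no direction prevailed. DMSO 0.025 pool 1 over control pool 1 gave 27 of 46 members above 0 (66.8% of the eligible probes) with a median of 0.05. DMF 0.1 pool 4 over DMSO 0.025 pool 4 gave 18 of 37 above 0 (55.5%) with a median of -0.04, although the members were widely spread there, with 10 at or below -0.5 (7.71% of the eligible probes) and 7 at or above 0.5 (10.7%).

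**Figure D4:**
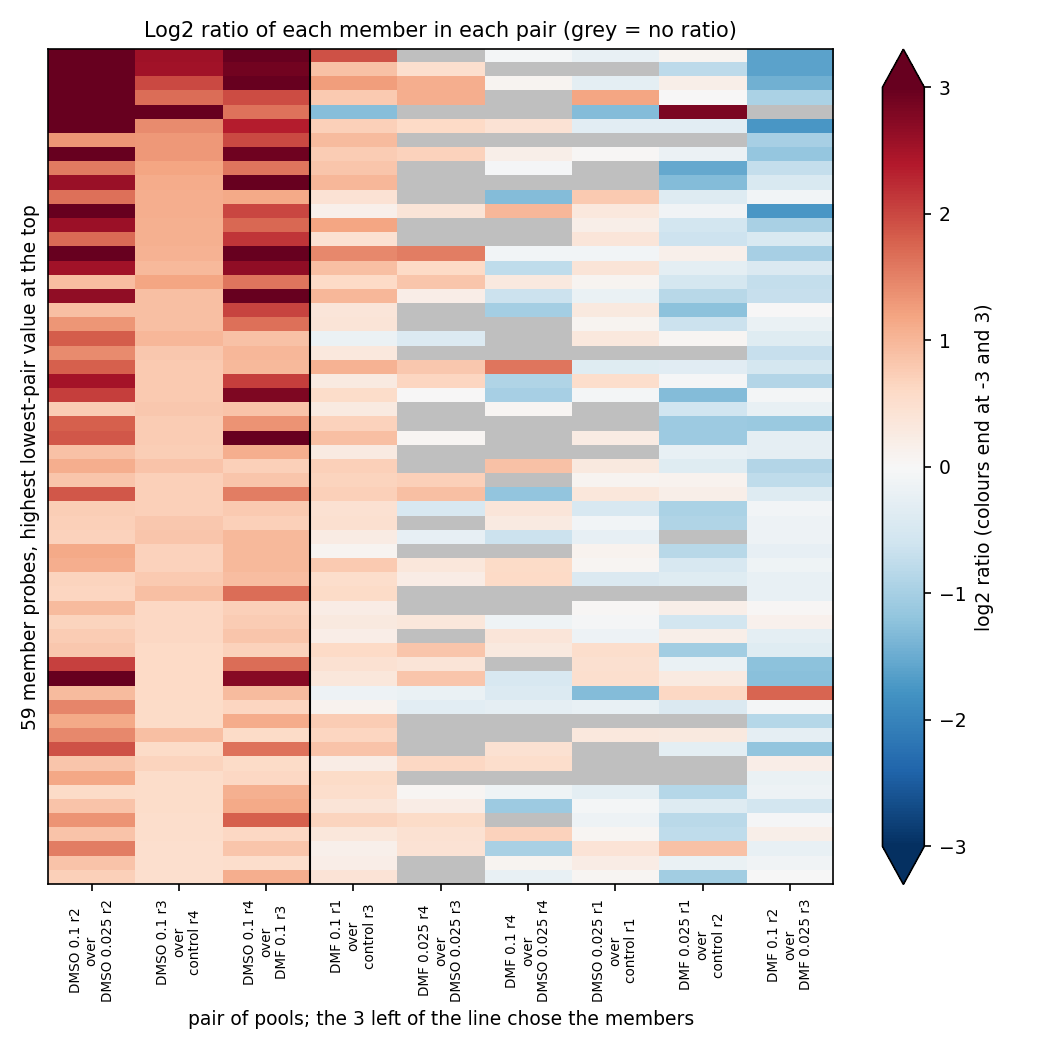
Log2 ratio of each of the 59 members (rows, ordered by their lowest value in the choosing pairs) in 9 pairs (columns), red above 0, blue below 0 and grey where a spot had the lowest grade. The columns for DMF 0.1 pool 1 over control pool 3 and for DMF 0.1 pool 2 over DMF 0.025 pool 3 are nearly uniform in opposite colours.

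BM156927, singled out after its values were seen, did not follow most of the others. It was a member with 3.14, 3.20 and 1.63 in the choosing pairs, but had -1.27 with DMF 0.1 pool 1 over control pool 3, where it was the lowest member, and 2.81 with DMF 0.025 pool 1 over control pool 2, where it was the highest. DMSO 0.025 pool 1 over control pool 1 gave -1.30. AI878636, also named after its values were seen, was another such member. It had 1.73 with DMF 0.1 pool 2 over DMF 0.025 pool 3, where it was the highest member. With DMF 0.1 pool 1 over control pool 3 it had -0.15, and with DMF 0.025 pool 1 over control pool 2 it had 0.62.

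A level for each pool was taken from single channels, over the 24 members graded on all 18 arrays of the 9 pairs. It is the median log2 amplitude of these members minus that of the 2674 eligible probes graded on the same arrays. The 3 DMSO 0.1 ml/L pools, on which the members were chosen, had levels of 0.73 to 1.14. Control pools had 0.15, 0.06, -0.17 and 0.18, and DMSO 0.025 ml/L pools had -0.11, -0.14, -0.36 and -0.19. These 2 groups overlapped. On their 2 arrays, DMSO 0.025 pool 3 had -0.60 and -0.12 and pool 4 had -0.44 and 0.06. Pool 1 had -0.12 and -0.10, and pool 2 had -0.12 and -0.15. DMSO 0.025 pools 2, 3 and 4 were in the dim channel on both of their arrays, at 0.93 to 4.01 times the empty spots for the graded members. Control pool 4 and DMSO 0.025 pool 2 were partners in the choosing pairs, so the rule bore on their levels too.

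The DMF pools differed within their own groups. At 0.025 ml/L, pools 1, 3 and 4 had levels of -0.17, 0.60 and 0.00. At 0.1 ml/L, pools 1 to 4 had 0.17, 0.33, -0.59 and -0.53. Pool 3 of DMF 0.1 ml/L was the partner of DMSO 0.1 pool 4, and members had to be lower in it to be chosen, so its level follows in part from the rule. The rule used none of the other DMF pools. DMF 0.025 pool 3 came nearest to the DMSO 0.1 ml/L pools, with 0.90 on the array with this pool in Cy5 and 0.30 with it in Cy3, against 0.60 to 1.19 on the single arrays of DMSO 0.1 ml/L.

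**Figure D5:**
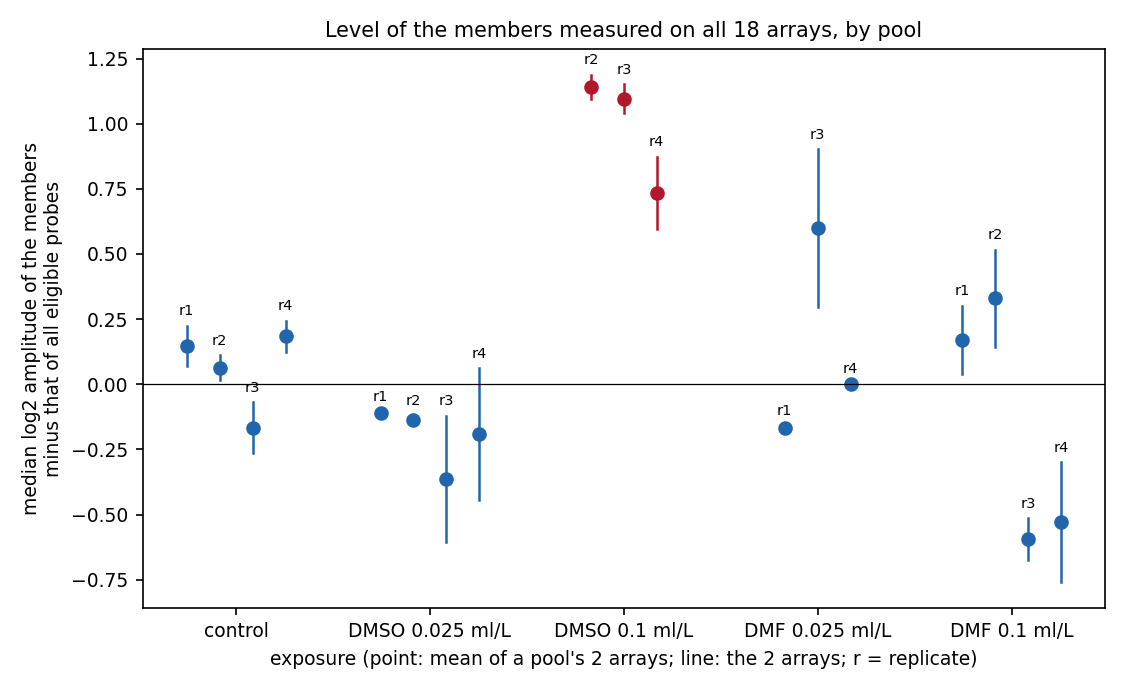
Median log2 amplitude of the 24 members graded on all 18 arrays, minus that of the eligible probes, for each pool (point: mean of its 2 arrays, line: the 2 arrays). The 3 DMSO 0.1 ml/L pools (red) chose the members and lie at 0.73 to 1.14, and the DMF 0.1 ml/L pools spread from -0.59 (pool 3, a partner in the choice) to 0.33.

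DMSO 0.1 pool 1, the pool that the rule did not use, could be read on 1 array only, against DMF 0.025 pool 2. Only 30.0% of probe spots on this array were graded above the lowest, and 25 members had a value after loess normalization and subtraction of each probe's dye effect from the other pairs. Of these, 16 were above 0 (46.4% of the eligible probes) and 10 were at or above 0.5 (9.16%), with medians of 0.30 and -0.04. The 5 measured members of the group of 15 were all at or above 0.83, among them AF180890 at 2.30 and BM185985 at 1.12. Of the other 20, 11 were above 0, with a median of 0.20. Without the dye correction 13 of the 25 were above 0 (47.4% of the eligible probes), with medians of 0.03 and -0.03. By that count and these medians the members lay near the background, but 8 of the 25 were at or above 0.5 (8.70% of the eligible probes). The 5 measured members of the group of 15 were among these, the lowest at 1.04. Of the other 20, 3 were at or above 0.5 and 8 were above 0. The rest of the group of 15 had no value on this array. Over all probes, DMF 0.025 pool 2 (Cy3) was nearer to the empty spots there than DMSO 0.1 pool 1 (Cy5). Whether the grades favoured members bright in DMSO 0.1 pool 1 was not tested, so these counts describe graded spots only. With low-grade spots kept, 35 of 59 members were above 0 (49.5% of the eligible probes). In single channels, the 11 members of the 24 that were graded there had levels of 0.37 for DMSO 0.1 pool 1 and 0.29 for DMF 0.025 pool 2. These levels were taken against all 2674 probes of the pool levels, whatever their grade on this array. They cannot be set beside the levels of the other pools. With 1 array in 1 orientation there was no replicate check and no test.

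A test that the choice of members did not touch was possible among the 6 pairs without DMSO 0.1 ml/L, and asked whether members differed between the other 4 conditions. In limma on loess-normalized log2 ratios, 4484 probes with a ratio in at least 5 of the 6 pairs were tested, 39 members among them. No probe passed a Benjamini-Hochberg adjusted p of 0.05 for DMSO 0.025 ml/L, DMF 0.025 ml/L or DMF 0.1 ml/L against control, or in the F test over the 4 conditions (0% of probes in each). At an unadjusted p under 0.05 there were 237 probes (5.29%) for DMSO 0.025 ml/L with 2 members among them, 354 (7.89%) for DMF 0.025 ml/L with 7 members, 37 (0.825%) for DMF 0.1 ml/L with 0 members, and 265 (5.91%) in the F test with 5 members. Members above 0 numbered 16, 23 and 22 of 39 in the 3 comparisons in that order, with medians of -0.05, 0.08 and 0.09. Over all probes tested, 51.0%, 50.4% and 53.1% were above 0, with medians of 0.01, 0.00 and 0.02. By the counts above 0 and the medians the members lay near the background in this fit. At the unadjusted p their share was above that of all probes for DMF 0.025 ml/L (7 of 39 against 7.89%) and in the F test (5 of 39 against 5.91%). It was not for DMSO 0.025 ml/L (2 of 39 against 5.29%) or DMF 0.1 ml/L (0 of 39 against 0.825%). The smallest adjusted p of a member was 0.550, for DMF 0.025 ml/L. With the authors' value table instead, 25, 31 and 32 of the 39 were above 0, against 53.2%, 48.7% and 56.1% of all probes tested. That fit called 0 probes. In the loess fit, the members' median for DMF 0.1 ml/L was -0.51 without DMF 0.1 pool 1 over control pool 3. It was 0.28 without DMF 0.025 pool 1 over control pool 2. For DMF 0.025 ml/L the members' median was 0.63 without DMF 0.025 pool 1 over control pool 2, with 21 of 25 above 0 (55.6% of all probes tested). It was -0.09 without DMF 0.1 pool 1 over control pool 3, with 12 of 24 above 0 (52.1%). In the 4 pairs of the second scan batch alone, the members' median for DMF 0.1 ml/L against control was -0.58 over 24 members, while the one direct pair, in the last batch, gave the positive values above.

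AF180890 was the highest member for DMF 0.1 ml/L against control, with a log2 difference of 0.61 ± 0.46 (SE, limma adjusted p = 0.999), and BG985730 the lowest, with -0.35 ± 0.37 (adjusted p = 0.999). The fit used loess-normalized ratios, while the single-array values given here are centred on each array's median. For BG985730 they were 0.48 and 0.61 on the arrays of DMF 0.1 pool 1 over control pool 3. On those of DMF 0.1 pool 4 over DMSO 0.025 pool 4 they were -1.01 and -0.96. DMF 0.025 pool 1 over control pool 2 gave -1.26 and -1.32. The 2 orientations agreed in sign in each of these pairs, and the sign differed between the pairs of DMF 0.1 pools 1 and 4. DMF 0.1 pool 2 over DMF 0.025 pool 3 gave -0.11 and 0.02. With DMF 0.025 pool 4 over DMSO 0.025 pool 3 it was 0.06 and -0.02, so both pairs lay near 0 with the orientations in disagreement. DMSO 0.025 pool 1 over control pool 1 gave -0.04 and -0.09.

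Among 14 named genes with a ratio in at least 8 of the 9 pairs, those whose ratios ran most like the members' median were dlx5a (Pearson r = 0.64 over 8 pairs), hoxb5a (0.59 over 8), mafba (0.42 over 9), naca (0.23 over 9) and hmx3a (0.20 over 9). At the other end were egr1 (-0.60 over 9), dlx1a (-0.57 over 9) and hoxa13b (-0.41 over 9), named after their values were seen, so genes of the dlx and hox families lay at both ends. The homeobox gene dlx5a acts in the forebrain and pharyngeal arches, hoxb5a in the identity of body segments, mafba in hindbrain segmentation and hmx3a in the ear. The product of naca binds nascent peptides at the ribosome. For dlx5a the log2 ratio was 2.60, 0.28 and 0.51 in the 3 choosing pairs, and 0.34 and -0.24 in the 2 DMF pairs that separated the members most. These are descriptions over few pairs, of which the same 3 chose the members.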

How the data were processed

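RNA of whole zebrafish embryos was measured on 20 arrays of 17328 spots, 750 of them control spots. For every spot the deposited files hold 1 intensity in Cy3 and 1 in Cy5, called amplitude, and a confidence grade. These came from BlueFuse for Microarrays, version 3.3 (2 arrays) or 3.6 (18 arrays), per the file headers, of which 17 name edited images. Scan batches and their order were inferred from the opening part of the image names in these headers. The authors also deposited a log2 ratio per spot, with normalization and centring not given in the sources used here. Its columns followed the Cy5 over Cy3 ratio of their own arrays, and it served as an alternative.

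Log2 ratios of the amplitudes were computed without spots of the lowest grade. For the rule and the pair values they were centred on each array's median. For the test they were normalized by loess (span 0.3, 4 iterations) in R 4.3.3 with limma 3.58.1, the 2 arrays of a pair were averaged, and lmFit and eBayes were run with 3 residual degrees of freedom; called probes had a Benjamini-Hochberg adjusted p under 0.05. Centring, loess, print-tip loess, background taken from empty spots, low-grade spots kept and each pair left out were alternatives. Precision is limited by the number of arrays. P-values rest on the spread between the pair ratios, moderated across probes. Plates, hybridisations and scan batches cannot be told apart in that spread. The members, lists and tests were chosen with earlier results of these data known. Named probes were the 2 members with the highest lowest-pair value and the lowest and highest for DMF 0.1 ml/L against control, and up to 5 named genes most like the members' median. The other records pair with no gene in the tables used (GRCz12tu RefSeq). No member's sequence was used here.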

Additional observations from a re-analysis of the deposited data

How the results depend on the processing

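How many probes met the rule depended on the settings. Instead of 59 of 3619 eligible probes there were 79 with loess and 80 in the authors' value table, of the same 3619. Among these were 53 and 47 of the 59. Print-tip loess gave 77, with 49 of the 59 among them. Background taken from empty spots gave 97, with 50 of the 59 among them. A threshold of 0.75 gave 28 and of 0.25 gave 175, and 18 reached 0.5 on each single array. Leaving out 1 choosing pair also changed the number of eligible probes. It gave 302 of 4306 without DMSO 0.1 pool 3 over control pool 4. Without the pair of DMSO 0.1 pool 2 it gave 112 of 4385, and without that of DMSO 0.1 pool 4 it gave 90 of 3933. Keeping spots of the lowest grade also moves the centre of each array and makes 16393 probes eligible. Of these, 221 met the rule, so the count rose but the share did not. Among the 221 were 8 of the 59, and 32 of the 59 were above 0 in all 3 pairs. In the other 4 processings (loess, print-tip loess, background from empty spots, authors' table) all 59 were above 0 in all 3.

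The alternatives for pairs outside the rule were chosen after seeing the data. For DMF 0.1 pool 1 over control pool 3, 30 to 44 of 59 members were at or above 0.5, and for DMF 0.1 pool 2 over DMF 0.025 pool 3, 22 to 27 were at or below -0.5. For DMF 0.025 pool 4 over DMSO 0.025 pool 3 the count was 16 of 33 (13.7% of the eligible probes). It became 32 of 59 with low-grade spots kept (32.9%) and 6 of 33 in the authors' table (3.44%). On the array of DMSO 0.1 pool 1, 13 to 16 of up to 25 were above 0 (46.1% to 54.6% of the eligible probes). Median centring gave 15 of 25 against 54.6%, near the share of all probes, but with medians of 0.44 for the members and 0.05 for the eligible probes. With low-grade spots kept it was 35 of 59 (49.5%). The causes were not tested.

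Leaving out 1 pair gave 0 to 1 called probe for each of DMSO 0.025 ml/L, DMF 0.025 ml/L, DMF 0.1 ml/L and the F test, with 1 in all 4 without DMF 0.1 pool 1 over control pool 3 and 1 for DMF 0.025 ml/L and in the F test without DMF 0.1 pool 4 over DMSO 0.025 pool 4. The second scan batch alone gave 12, 27, 5 and 47 of 3188 probes tested, with 1 of 24 members, in the F test. Its 4 pairs left 1 residual degree of freedom, so these counts are not on the footing of the fit to all 6 pairs. The labels do not say that a replicate number marks a shared batch. With the replicate block 2 comparisons could be fitted, with 1 residual degree of freedom, and called 0 for DMSO 0.025 ml/L and 0 for DMF 0.1 ml/L. Channels close to empty spots in the second scan batch, where 33 to 52 members had a ratio in the pairs outside the rule, limit what could be seen.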
